A study of Mus musculus with 4 samples.

Results

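Pro-B and large pre-B cells are the bone marrow B-cell precursors that make the surrogate light chain. They were taken here from single-cell RNA libraries of bone marrow mononuclear cells as the cells with at least 1 unique molecular identifier (UMI, the tag that marks 1 captured RNA molecule) of Cd79a or Cd79b, at least 2 UMIs of Vpreb1 and Igll1 together and 0 UMIs of Siglech, a gene of plasmacytoid dendritic cells. This rule held for 2820 of 39167 cells. The cells came from femur and tibia of 2 TLR9-/- mice and 2 WT mice of the C57BL/6 strain, with 1 library per mouse. The TLR9-/- mice lack Toll-like receptor 9, an endosomal sensor of unmethylated CpG DNA, in every cell. No treatment separated the groups, and both genotypes came from the same provider and were housed and bred apart, by genotype. The age of these 4 mice, and whether they were littermates, is not given in the sources used here. The 2 experiments of the study each included 1 mouse of either genotype, but the labels do not tie the library numbers to the experiments.

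A developing B cell first rearranges its immunoglobulin heavy chain with the recombinase Rag1/Rag2 and the terminal transferase Dntt. The new heavy chain is then tested with a stand-in light chain built from VpreB (Vpreb1 or its near copy Vpreb2) and lambda5 (Igll1), which together with the signalling subunits Ig-alpha (Cd79a) and Ig-beta (Cd79b) form the pre-B-cell receptor. A working receptor drives several divisions of the large pre-B cell together with interleukin-7, after which the surrogate light chain is switched off and the kappa and lambda light chain genes are rearranged.

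The promoters of the 3 surrogate light chain genes are shown because the cells were chosen by Vpreb1 and Igll1 transcripts and because Vpreb2, which the rule did not use, is a near copy of Vpreb1. All 3 genes lie on chromosome 16 of GRCm38. Igll1 (ENSMUSG00000075370) spans 16860671 to 16863985, Vpreb1 (ENSMUSG00000059305) 16868403 to 16870843 and Vpreb2 17980428 to 17981273. The sequences are RefSeq promoters of GRCm38.p6, from 250 bases before to 50 bases after the RefSeq start, for Igll1 at chr16:16863936-16864235 on the minus strand, Vpreb1 at chr16:16869206-16869505 on the minus strand and Vpreb2 at chr16:17980315-17980614 on the plus strand. Capitals mark matches to CAGGTG on either strand, the E-box read by E proteins such as Tcf3, and to CCCNNGGG, the palindrome read by Ebf1. The motifs were searched without mismatches and did not overlap each other.
Igll1: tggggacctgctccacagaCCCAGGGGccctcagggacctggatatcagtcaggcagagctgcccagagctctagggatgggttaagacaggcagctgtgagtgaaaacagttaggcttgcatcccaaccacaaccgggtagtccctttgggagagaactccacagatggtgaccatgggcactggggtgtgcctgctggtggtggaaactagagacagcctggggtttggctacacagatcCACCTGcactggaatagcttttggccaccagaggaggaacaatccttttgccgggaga
Vpreb1: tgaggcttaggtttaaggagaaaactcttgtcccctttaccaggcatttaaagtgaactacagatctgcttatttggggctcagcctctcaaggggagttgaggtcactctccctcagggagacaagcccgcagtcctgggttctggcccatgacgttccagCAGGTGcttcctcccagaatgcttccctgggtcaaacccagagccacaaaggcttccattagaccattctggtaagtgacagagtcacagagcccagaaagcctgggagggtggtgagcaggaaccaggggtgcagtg
Vpreb2: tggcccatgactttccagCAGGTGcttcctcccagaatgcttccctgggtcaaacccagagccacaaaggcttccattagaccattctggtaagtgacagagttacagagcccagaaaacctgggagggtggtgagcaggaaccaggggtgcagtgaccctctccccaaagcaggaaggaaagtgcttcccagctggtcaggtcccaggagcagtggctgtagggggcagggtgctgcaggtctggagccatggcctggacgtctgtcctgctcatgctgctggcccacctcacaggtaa
Each window held 1 E-box match, and the Igll1 window also held 1 match to CCCNNGGG. The E-box match began at base 243 of the 300-base window in Igll1, at base 163 in Vpreb1 and at base 19 in Vpreb2. For Vpreb1 and Vpreb2 the RefSeq start lay inside the gene span given above, so these places are not compared between the genes. The Vpreb1 and Vpreb2 windows shared a stretch of 91 identical bases that held the E-box match. Of 32851 mouse promoters of the same length, 20.2% held CAGGTG and 13.7% held CCCNNGGG, so a match describes the window and is not evidence of binding. Vpreb1 and Vpreb2 are also alike in their transcripts. Of the 670 windows of 90 bases in the 759-base Vpreb2 transcript, 107 (16.0%) occur unchanged in Vpreb1, so reads from these stretches could be assigned to neither gene alone and the split between the 2 counts is uncertain.

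The gated cells numbered 769 and 271 in the TLR9-/- libraries 1 and 2 (1040 cells) and 933 and 847 in the WT libraries 1 and 2 (1780 cells). Their UMIs summed to 4575627 and 2526627 for TLR9-/- and to 3782764 and 5330223 for WT. The median gated cell held 3962 and 7407 UMIs against 2730 and 4696, so that the deepest cells and the fewest cells came from TLR9-/- library 2. The median count of Vpreb1 and Igll1 together was 15 and 23 UMIs for TLR9-/- and 13 and 16 for WT. Among gated cells of the 4 libraries, between 97.4% and 98.2% had an Igll1 UMI and between 90.2% and 94.3% a Vpreb1 UMI. Only 7 barcodes of gated cells occurred in more than 1 library.

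Values at the edge of the rule are given as a description. Vpreb3, a pre-B-cell receptor associated protein that the rule did not use, had 1122, 471, 2389 and 2217 CPM (UMI counts scaled to a common total per library) in cells with 1 surrogate light chain UMI, just outside the rule, in the order TLR9-/- 1, TLR9-/- 2, WT 1 and WT 2. In cells with 2 such UMIs, just inside it, the values were 2088, 1228, 2649 and 2585 CPM, and in cells with 3 or more they were 2395, 2541, 3503 and 2932 CPM. Dntt had 12.2, 38.2, 11.5 and 2.93 CPM in the cells with 2 surrogate light chain UMIs and 189, 268, 305 and 327 CPM in those with 3 or more. Cells just inside the rule were thus close to those just outside it in Dntt and between the other cells in Vpreb3. In all, 46 cells had enough surrogate light chain UMIs but no Cd79a or Cd79b UMI, and 49 cells were left out for a Siglech UMI.

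Markers that the rule did not use matched the label in part. Ebf1, a transcription factor that sets the B lineage, had a UMI in 96.7% to 98.9% of the gated cells of the 4 libraries, and Vpreb3 in 98.2% to 99.5%. Il7r, the receptor for interleukin-7, had a UMI in 46.1% to 56.1%, Pax5, the B-cell commitment factor, in 38.4% to 60.5%, and Mki67, a protein of dividing cells, in 41.1% to 61.6%. In the same libraries an Il7r UMI was found in 0.981% to 2.20% of neutrophils and 29.2% to 45.3% of T cells, and a Vpreb3 UMI in 0.516% to 3.31% of neutrophils. Dntt had a UMI in 36.3% and 46.9% of the gated TLR9-/- cells and in 42.0% and 46.0% of the WT cells, compared with 0, 5, 0 and 0 of 542, 307, 182 and 95 T cells in TLR9-/- 1, TLR9-/- 2, WT 1 and WT 2, which should lack it in adult marrow. The median T cell held 1808.5 to 2552 UMIs, less than the median gated cell. Kit, the stem cell factor receptor of early pro-B cells, had a UMI in 2.47% to 4.84% of the gated cells, and Il2ra, the CD25 chain of pre-B cells, in 0.390% to 2.24%. Ms4a1, the CD20 protein of later B cells, had one in 2.34% to 4.82%. Igkc is the kappa constant region of light chains made after the surrogate light chain. It had a UMI in 42.7% and 46.1% of the TLR9-/- and 40.1% and 43.7% of the WT gated cells. Igkc RNA was thus frequent among them, and whether it came from rearranged kappa genes was not tested. An Igkc UMI was also found in 1.65% to 4.21% of the T cells. No such share was set beside Pax5, Mki67, Kit, Il2ra and Ms4a1, and the small shares of Kit, Il2ra and Ms4a1 are not read as expression. At least 2 surrogate light chain UMIs were found in 0 of these T cells and in 0.0469% to 0.330% of neutrophils. Both sets were chosen to have 0 UMIs of Cd79a and Cd79b, which leaves out cells that took up such RNA. These shares therefore cannot show how often free RNA met the limit on the surrogate light chain.

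RNA of other lineages was present in the gated cells. All 12 neutrophil genes of the marker list were detected in every library, and their sum was 11807 and 16172 CPM for TLR9-/- and 12474 and 11491 for WT, with S100a9 the most abundant. The 8 erythroid genes summed to 2085 and 1070 CPM in TLR9-/- and 4696 and 1778 in WT cells, led by Hbb-bs. The 8 monocyte genes summed to 1140 and 1271 against 857 and 768 CPM, led by Lyz2. The 11 T and NK cell genes gave 99.4 and 157 against 89.4 and 68.7 CPM, with Nkg7 the most abundant. In the order TLR9-/- 1, TLR9-/- 2, WT 1 and WT 2, an S100a9 UMI was found in 30.9%, 32.1%, 19.3% and 61.7% of the gated cells. A Hbb-bs UMI was found in 33.9%, 11.1%, 46.3% and 22.6%. The cell with the most S100a9 UMIs held at most 25.2% of them in a library, and for Hbb-bs at most 32.2%. Some genes outside these sums came mostly from single cells. In TLR9-/- library 1, 413 of 503 UMIs of the basophil protease Prss34 lay in 1 cell, as did 209 of 236 in WT library 1. In WT library 1 a single cell also held 899 of 941 UMIs of Jchain, the joining chain of secreted antibody, and 567 of 576 UMIs of Ighv1-72 came from 1 cell.

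The share of gated cells was lower in both TLR9-/- libraries than in both WT libraries. Of all cells kept they made up 7.13% and 3.04% for TLR9-/- and 8.82% and 9.52% for WT, which is 5.09% ± 2.89 against 9.17% ± 0.493 (SD, n = 2 libraries each). The groups did not overlap, the difference (TLR9-/- minus WT) was −4.09 percentage points, larger than the WT spread, and the spread among TLR9-/- mice was 2.89 points. The exact two-sided permutation test gave p = 0.333, the smallest value that 2 libraries against 2 allow. Because deeper cells pass a count rule more easily, the rule was also applied after each cell was reduced at random to 1000 UMIs. The share was then 4.56% and 2.06% in TLR9-/- and 6.68% and 6.64% in WT libraries. Among cells with a Cd79a or Cd79b UMI the groups overlapped, at 17.5% and 8.34% in TLR9-/- and 15.9% and 16.9% in WT (difference −3.47 points, exact permutation p = 1). A share in these libraries is a share of captured cells, so fewer precursors and more of the other cells cannot be told apart.

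**Figure D1:**
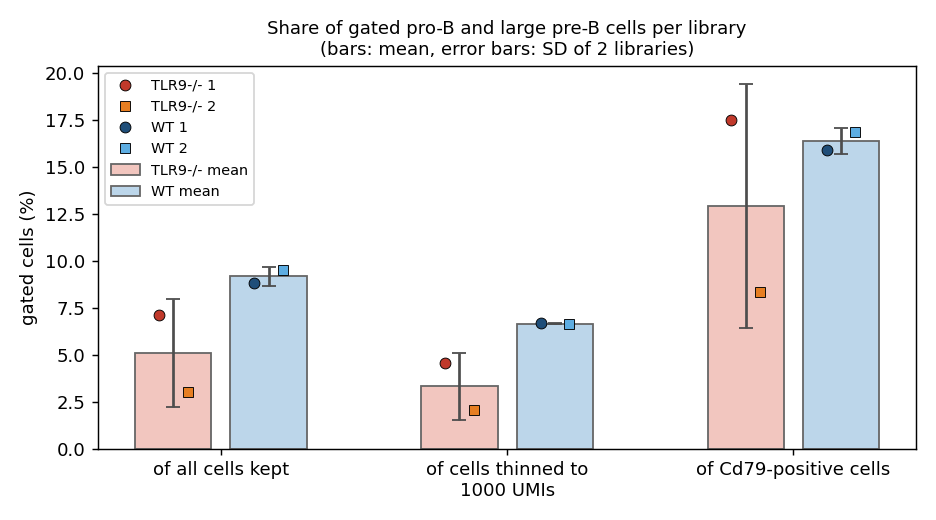
Share of gated cells in each library in percent (y axis), out of all cells kept, out of cells thinned to 1000 UMIs and out of Cd79-positive cells, with points for libraries, bars for means and error bars for the SD of 2 libraries. Over all cells the TLR9-/- libraries lie at 7.13% and 3.04%, under the WT libraries at 8.82% and 9.52%, while over Cd79-positive cells the groups overlap.

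The place of these cells among the B lineage was described against the 15701 other Cd79-positive cells of the same libraries, those with at most 1 surrogate light chain UMI and no Siglech UMI. Since the rule itself separates these 2 populations, the values are a description and nothing is read from their counts. Of 11345 genes, 427 (3.76%) were at least 2-fold higher and 1365 (12%) at least 2-fold lower in the gated cells by the threshold of the fit. Among the genes of the rule, Vpreb1 was at 937, 1116, 1383 and 1232 CPM in the gated cells of TLR9-/- 1, TLR9-/- 2, WT 1 and WT 2, and at 2.81 to 9.08 CPM in the other cells. Igll1 was at 1584 to 2198 CPM in gated and 1.65 to 14.5 CPM in other cells. Vpreb2, the third chain gene, followed them with 169, 172, 193 and 164 CPM against 0.143 to 1.56 CPM (log2 difference 7.70).

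The comparison cells were not pure. Their neutrophil genes summed to 24928 to 64067 CPM, more than in the gated cells. A narrower comparison, chosen after the data were seen, kept other cells with at least 3 Cd79 UMIs and at most 1 UMI over 5 myeloid genes, in which the neutrophil sum was 452 to 2095 CPM. Vpreb3 was 1.21 higher in the gated cells on the log2 scale and Blnk, the adaptor of the pre-B-cell receptor, 1.08. With the narrower comparison the differences were −0.02 and −0.12, so neither was higher in that comparison. Of 16 genes of the receptor and its signalling, 3 were higher and 0 lower in the main fit, with a median of 0.007. With the narrower comparison 1 (Vpreb2) was higher and 7 were lower (Fcrla, Lyn, Cd22, Blk, Syk, Ighm and Bcl6), with a median of −0.71. Over all 10377 genes tested there, 718 were higher and 1006 lower.

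Early B-lineage genes passed in both directions in the gated cells. Of 16 genes of the early list that could be tested, 7 were higher and 4 lower, beside 3.76% and 12% of all genes. The median log2 difference was 0.82 beside −0.01 over all genes. Dntt had 178, 235, 280 and 306 CPM in the gated cells and 14.8, 28.5, 11.04 and 10.1 CPM in the other cells (log2 difference 4.01). Lef1, a transcription factor of the Wnt pathway, had 156, 113, 206 and 171 CPM against 7.81, 3.93, 21.1 and 11.8 (4.02). Myl10, a myosin light chain marking pro-B cells, had 115, 141, 151 and 69.3 CPM against 11.4, 12.7, 16.4 and 6.77 (3.34). Cplx2, Bst1, the ectoenzyme BP-3, and Rag2 were higher by 2.43, 2.02 and 1.70, and Erg, an ETS factor needed for early B-cell development, by 2.56. In each library every one of these genes was higher in the gated cells. Cd34, Kit and Flt3, receptors and adhesion molecules of progenitors, and Ly6d, a marker of B-lineage specification, were lower by the same fit, at −2.94, −1.47, −2.20 and −2.82. With the narrower comparison Cd34 was at 1.08 and Kit at 1.12, so the direction of both turned with the choice of comparison cells, which changed in Cd79 and myeloid UMIs together. Flt3 was then at −0.53 and no longer passed (edgeR adjusted p = 0.12), and Rag2 was at 0.64, under 2-fold. The cause was not tested. Of the 16 genes 8 were higher in that comparison and 3 lower, with a median of 0.96. There 10 of 12 neutrophil genes (median 4.22) and 5 of 7 monocyte genes (median 1.97) were higher in the gated cells too. The part of this RNA in the Cd34 and Kit values was not tested.

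The 10 genes that led the list by fold were Vpreb2, Gm30948, Arpp21, Gfra2, Lef1, Dntt, Enpep, Socs2, Myl10 and Bfsp2. Arpp21, a cAMP-regulated phosphoprotein, had 35.3 to 57.6 CPM in the gated cells and 0.561 to 1.503 CPM in the others. Gfra2, a receptor for the neurotrophic factor neurturin, had 46.5 to 64.0 against 0.970 to 5.42 CPM. Enpep, the aminopeptidase known as BP-1 or 6C3 that defines a stage of B-cell precursors, had 47.5 and 61.2 CPM in TLR9-/- and 41.9 and 22.2 in WT gated cells against 1.12 to 5.89 CPM. Bfsp2, a lens filament protein, had 95.4 to 269 CPM against 11.005 to 33.7. The long noncoding RNA gene Gm30948 had 23.3 to 76.0 CPM against 0.339 to 0.784 CPM.

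Most genes of later B cells were lower in the gated cells. Of 19 such genes, 17 were lower and 0 higher, beside 12% of all genes that were lower, with a median log2 difference of −3.25. Ms4a1 had 7.73, 5.81, 25.3 and 12.4 CPM in the gated cells and 156, 146, 277 and 285 CPM in the other cells. Cd74, the invariant chain of MHC class II, differed by −3.99, H2-Aa by −3.32, Fcer2a, the CD23 receptor, by −4.72 and the lambda constant gene Iglc1 by −4.78. Igkc had 301 to 462 CPM in the gated cells and 1085 to 2568 CPM in the others. Kappa variable genes made up all 10 of the leading lower genes. Igkv3-12 had 35.6 to 54.2 CPM in the other cells and at most 0.751 CPM in the gated cells, whereas Igkv4-74 reached 227 CPM in TLR9-/- library 2 and 3.46 to 5.28 CPM in the other 3, so single variable genes differed among mice. Together the kappa variable genes gave 232, 181, 862 and 137 CPM in the gated cells and 6109 to 9880 CPM in the other cells.

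Of the growth genes, 2 of 42 S phase and 2 of 53 G2 and mitosis genes were higher, beside 3.76% of all genes. In the gated cells all 42 S phase genes and all 53 G2 and mitosis genes had a positive estimate, with medians of 0.57 and 0.64 on the log2 scale, but only Gins2, Uhrf1, Ccnb1 and Gtse1 passed the 2-fold threshold. Within cells of 1000 to 3000 UMIs these medians were −0.34 and −0.43, so the direction of both lists turned with the depth of the cells, and none of the 4 passed there, with Gins2 at 0.12, Uhrf1 at 0.24, Ccnb1 at 0.14 and Gtse1 at −0.07. With the narrower comparison 12 S phase genes and 2 G2 and mitosis genes were higher and 0 lower, with medians of 0.82 and 0.69. Ccnd3, the D-type cyclin that pre-B-cell division needs, had 424, 506, 334 and 349 CPM against 172, 172, 215 and 189 in the other cells, but its log2 difference was 0.79 with the narrower comparison, under 2-fold, and 0.33 in cells of 1000 to 3000 UMIs, where it did not pass (edgeR adjusted p = 0.08). Bcl2, which keeps resting lymphocytes alive, had 4.65 to 7.89 CPM against 23.1 to 31.6, and Klf2, a factor of quiescent lymphocytes, 29.8 to 72.3 against 87.1 to 351 CPM. Of 18 early response genes tested, 9 were lower and 0 higher, beside 12% of all genes that were lower. Among them were Fos (log2 difference −1.96) and Junb (−1.55). Among 14 genes of V(D)J recombination and end joining, Dntt, Rag2, Xrcc5 and Hmgb1 were higher and Polm, a polymerase that acts at light chain joints, was lower (−1.52). Dntt and Polm passed in the same directions with the narrower comparison and in cells of 1000 to 3000 UMIs. With the narrower comparison Rag2, Xrcc5 and Hmgb1 were at 0.64, 0.75 and 0.96, all under 2-fold, and in the cells of limited depth Hmgb1 was at 0.20 and did not pass (edgeR adjusted p = 0.32) and Xrcc5 could not be tested.

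**Figure D2:**
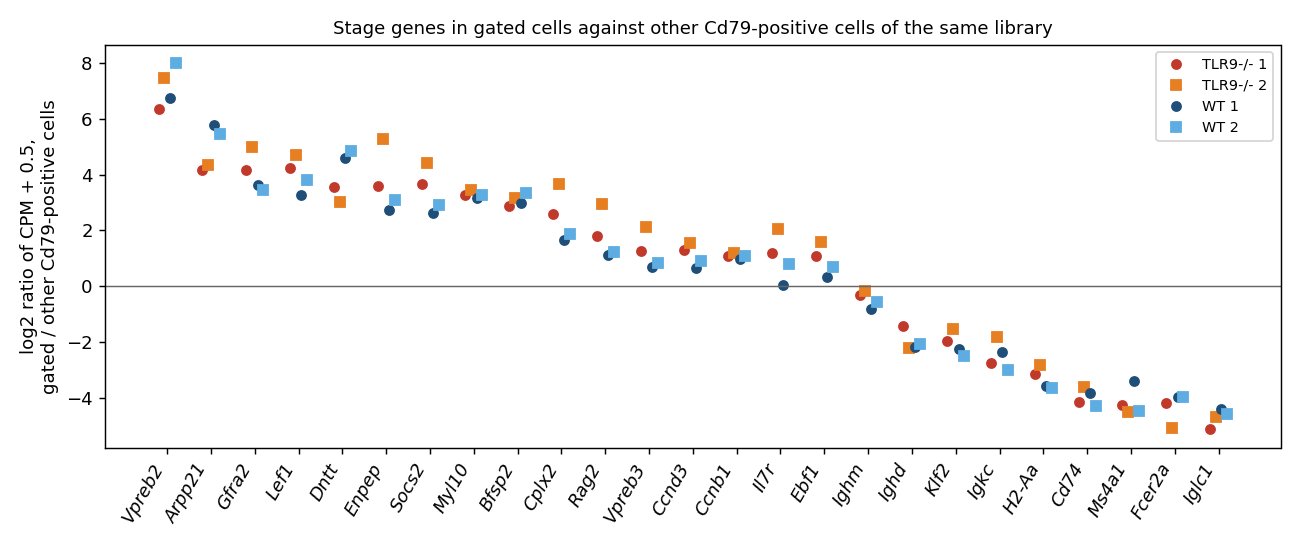
Log2 ratio of CPM + 0.5 in gated cells over other Cd79-positive cells of the same library (y axis) for stage genes (x axis), 1 point per library. Vpreb2, Arpp21, Lef1 and Dntt lie above 0 and Igkc, Cd74, Ms4a1 and Iglc1 below 0 in all 4 libraries, while Il7r, Ebf1 and Ighm lie nearer to 0.

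The gated cells varied among themselves along Dntt. After each cell was thinned to 1000 UMIs, which left out 50, 3, 106 and 32 shallower cells of TLR9-/- 1, TLR9-/- 2, WT 1 and WT 2, a Dntt UMI was found in 23.1% and 26.9% of gated TLR9-/- cells and 28.4% and 35.3% of gated WT cells. A cell without a Dntt UMI may still hold Dntt RNA, so these classes are ranges and not types. Vpreb3, which neither the rule nor the split used, had a mean of 7.02, 5.96, 8.91 and 7.19 UMIs per 1000 in the Dntt-positive cells of the 4 libraries, in that order, and 3.07, 3.61, 3.99 and 3.59 in the Dntt-negative cells. The surrogate light chain count, with means of 9.86, 8.43, 10.4 and 8.33 against 3.29, 3.43, 3.82 and 2.95 UMIs, is the count that chose the cells, and since a deeper cell needs a smaller share of it to pass, nothing is read from these values. Cells with at least 3 UMIs of the 53 G2 and mitosis genes made up 51.8%, 50%, 46.4% and 45.8% of Dntt-positive cells and 83.5%, 80.6%, 79.7% and 83.7% of Dntt-negative cells. Hmgb2, a chromatin protein that also assists V(D)J recombination, is on this gene list, and without it, an alternative chosen after the data were seen, the shares were 42.8%, 36.1%, 33.6% and 37.5% against 76.5%, 74.5%, 70.8% and 76.9%. These shares count cells with a set number of UMIs and are not read as shares of dividing cells. An Igkc UMI was found in 5.42% to 5.96% of the Dntt-positive cells and in 25.5%, 34.7%, 27.2% and 28.5% of the Dntt-negative cells, and in the whole neutrophils of the same libraries, not thinned, in 1.55% to 3.41%. For Vpreb3, the G2 and mitosis class and Igkc the direction was the same in all 4 libraries and the ranges of the 2 classes did not overlap. Before thinning the Dntt-positive cells held a median of 2105.5, 3916.5, 1790 and 2487.5 UMIs and the Dntt-negative cells 4924, 8973.5, 4147.5 and 7187.

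Vpreb3 also varied within each Dntt class. Among Dntt-positive cells, those with fewer than 3 G2 and mitosis UMIs had a mean of 9.34, 8.06, 11.03 and 8.70 Vpreb3 UMIs per 1000 and those with 3 or more had 4.87, 3.86, 6.47 and 5.41. Among Dntt-negative cells the means were 6.82, 7.97, 7.96 and 7.29 against 2.33, 2.56, 2.99 and 2.86. In every library Vpreb3 was highest in Dntt-positive cells with few mitosis UMIs and lowest in Dntt-negative cells with many, which is given as a description because these classes also differ in depth before thinning. The Dntt-negative cells with many mitosis UMIs were the most numerous class, at 64.3%, 59.0%, 57.1% and 54.1% of the thinned gated cells.

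**Figure D3:**
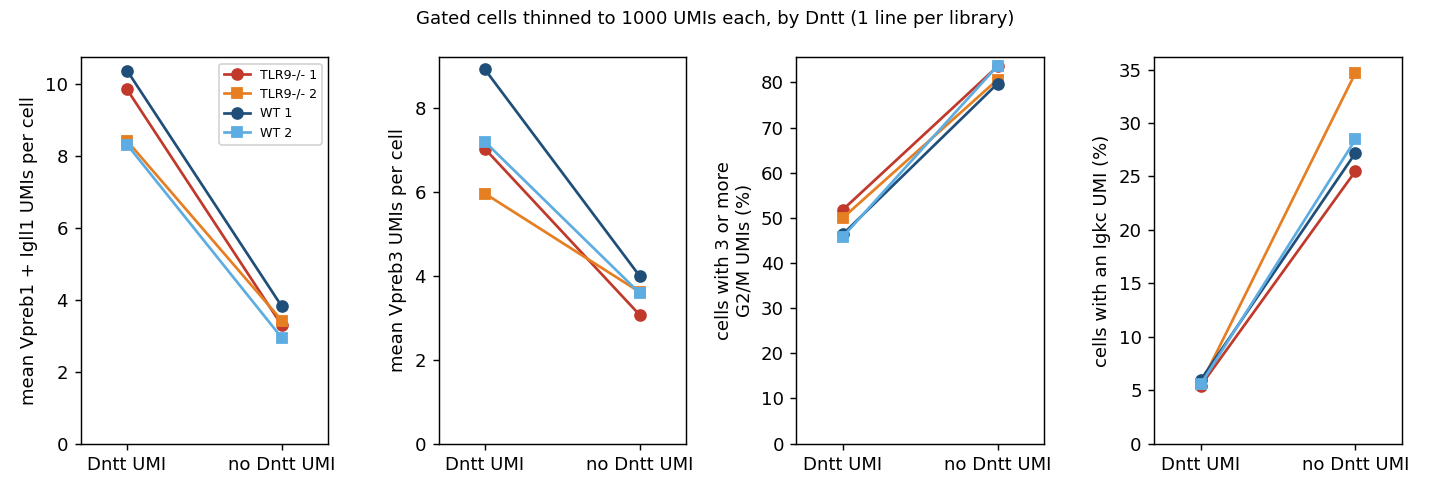
Gated cells thinned to 1000 UMIs, split by whether a Dntt UMI was found (x axis), with the mean Vpreb1 + Igll1 UMIs per cell, mean Vpreb3 UMIs per cell, percent of cells with 3 or more G2/M UMIs and percent with an Igkc UMI (y axes), 1 line per library. The surrogate light chain panel shows the rule's own count and is a description, while the Vpreb3 lines run from between 5.96 and 8.91 UMIs with Dntt down to between 3.07 and 3.99 without it and the Igkc lines from 5.42% to 5.96% of cells with Igkc up to between 25.5% and 34.7%.

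The same split, made on the whole UMI counts and summed per library, was tested across 8465 genes with the library as a block. It gave 467 genes (5.52%) higher and 139 genes (1.64%) lower in the Dntt-positive cells at an adjusted p under 0.05 and at least 2-fold. When both classes were restricted to cells of 1000 to 5000 UMIs, 228 genes were higher. Several genes of the pro-B stage were higher with Dntt. Of 13 early B-lineage genes tested, 8 were higher and 0 lower (Rag1, Rag2, Lef1, Bst1, Kit, Myl10, Erg and Cplx2), with a median log2 difference of 1.33 beside 0.01 over all genes. In cells of 1000 to 5000 UMIs 12 could be tested, with 6 higher (Rag1, Lef1, Bst1, Myl10, Cplx2 and Erg), Cnp and Ly6d lower and a median of 1.01. Rag1 had 96.4, 85.7, 139 and 214 CPM in the Dntt-positive cells and 15.2, 16.6, 35.5 and 20.6 in the Dntt-negative cells (2.65, standard error 0.17, adjusted p = 1.2e-08). In cells of 1000 to 5000 UMIs the Rag1 difference was 1.46. Rag2 had 105, 71.2, 108 and 96.9 against 20.7, 17.2, 37.1 and 25.7 CPM (1.94), but the difference was 0.75 in cells of 1000 to 5000 UMIs, no longer 2-fold (edgeR adjusted p = 0.0036). Vpreb2 had 302, 319, 349 and 323 against 121, 85.6, 123 and 89.7 CPM (1.63, standard error 0.09, adjusted p = 2.8e-09) and a difference of 1.62 in cells of 1000 to 5000 UMIs, and the groups of libraries did not overlap for any of these 3 genes.

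Among transcription factors, Lef1, Id3, an inhibitor of E proteins, Erg, Tcf4, an E protein, and Foxo1, which drives Rag transcription, were higher by 1.33, 1.02, 2.82, 1.01 and 1.34. Ikzf3 and Irf4, both known to help switch off the surrogate light chain and to open light chain rearrangement, were lower by −2.73 and −1.60. Ikzf3 had 5.77, 5.16, 15.8 and 5.80 CPM in the Dntt-positive cells and 42.6, 51.1, 66.9 and 53.6 in the Dntt-negative cells. The other 18 of 25 factors tested passed in neither direction. Lef1 (1.35) and Erg (1.90) were the only ones of 24 factors that passed as higher in cells of 1000 to 5000 UMIs, with Foxo1 at 0.99, Id3 at 0.68 and Tcf4 at 0.65, all under 2-fold. Ikzf3 (−2.63) and Irf4 (−1.53) were lower there too, as were Spi1, Spib and Klf2. In pre-B-cell receptor signalling, Blnk was higher by 1.38, while Fcrla, Cd22 and Blk, a Src-family kinase, were lower by −2.94, −2.65 and −2.31. Xrcc6, the Ku70 protein of end joining, was higher by 1.08 and Polm lower by −1.52. In cells of 1000 to 5000 UMIs the same 3 lower genes of the receptor list passed (−3.05, −2.003 and −2.09), whereas Blnk at 0.85 and Xrcc6 at 0.84 were under 2-fold and Polm could not be tested.

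The genes that led the Dntt-positive side were Dlg2, Rnase12, Arpp21, Gm30948, Tmem91, Grb7, Frmd6, Rag1, Ankrd33b and 1700048O20Rik. Dlg2, a scaffold protein, had 46.1, 26.8, 96.7 and 118 CPM against 3.34, 4.47, 8.06 and 4.23 CPM (3.96, standard error 0.21, adjusted p = 1.3e-09). Rnase12, a secreted ribonuclease family member, had 38.9 to 66.1 against 3.10 to 5.47 CPM, and Grb7, an SH2 adaptor, 36.6 to 92.9 against 5.08 to 12.9 CPM. The Dntt-negative side was led by Myl4, Nrgn, Fcrla, Gm30211, Ikzf3, Cd22, Blk, Emid1, Tmprss3 and 9530077C05Rik. Myl4, an atrial myosin light chain, had 617, 733, 716 and 615 CPM without Dntt and 72.5, 35.1, 62.5 and 40.6 CPM with it (−3.67, standard error 0.14, adjusted p = 4.6e-11). Nrgn, the calmodulin binding protein neurogranin, had 174 to 397 against 16.8 to 53.5 CPM. With cells of 1000 to 5000 UMIs, Myl4 was at −4.65 and Dlg2 at 2.71.

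Some S phase genes were lower with Dntt, whereas G2 and mitosis genes did not pass in the main fit. Of 42 S phase genes, 4 passed the threshold (Dtl, Ung, Mcm2 and Hells), all lower, beside 1.64% of all genes that were lower. A negative estimate was found for 41, with a median of −0.63. Of 53 G2 and mitosis genes 0 passed, with 27 at an unadjusted p under 0.05, 11 positive estimates and a median of −0.17. In cells of 1000 to 5000 UMIs the counts were 21 and 2 lower, with medians of −1.05 and −0.59. Ccnd2, a D-type cyclin of the interleukin-7 and pre-B-cell receptor response, was lower by −1.07, with 62.5 to 117 CPM in the Dntt-positive cells and 128 to 234 in the others. It was at −0.23 in cells of 1000 to 5000 UMIs and did not pass (edgeR adjusted p = 0.47). Igkc was lower by −1.42 and by −2.12 without WT library 1, where 502 of 1732 Igkc UMIs lay in 1 cell.

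Some interferon-stimulated genes were higher in the Dntt-positive cells. Of 19 tested, 9 passed and all were higher, beside 5.52% of all genes, with a median of 0.92 and 0 negative estimates. Ifitm3, an antiviral membrane protein, had 302, 354, 402 and 179 CPM against 112, 60.02, 114 and 57.0 (1.82), Rtp4 differed by 2.26 and Irf7, the interferon master regulator, by 1.99. In cells of 1000 to 5000 UMIs only Rtp4 of 14 passed, and Ifitm3 was at 0.87. Of 14 early response genes, Jun and Cd69 were higher by 1.5005 and 1.5001, and in cells of 1000 to 5000 UMIs by 0.95, under 2-fold, and 1.19. Genes of later B cells passed in both directions. Of 16 tested, Ltb, the lymphotoxin beta chain, Cd55, a complement regulator, and the lambda constant gene Iglc2 were higher by 1.91, 1.32 and 1.05, and Igkc and Cd72, a B-cell coreceptor, were lower by −1.42 and −1.21, with a median of 0.38. Of 12 tested in cells of 1000 to 5000 UMIs, Ltb (1.27) was higher and Igkc (−2.54) lower, with a median of −0.34. Markers of other lineages moved too. Lyz2 was higher by 1.12 and the 8 monocyte genes summed to 1662, 1813, 1322 and 1161 CPM with Dntt and 961, 948, 646 and 595 without. Of the 12 neutrophil genes 0 passed, with 2 at an unadjusted p under 0.05 and a median of 0.02. In cells of 1000 to 5000 UMIs Lyz2 was at −0.64, and 6 of 11 neutrophil genes (Chil3, Prtn3, Elane, Camp, Ltf and Mpo) were lower with Dntt, with a median of −1.11, beside the lower S phase genes. The part of this RNA in the S phase result was not tested. Nor was the part of the monocyte RNA in the interferon-stimulated result tested. Jchain passed as higher (2.83), with 758 CPM in WT library 1 and at most 14.8 CPM in the other Dntt-positive libraries, and this came from the 1 cell named above. It could not be tested without WT library 1 under the filter on low counts, and DESeq2 did not call it.

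**Figure D4:**
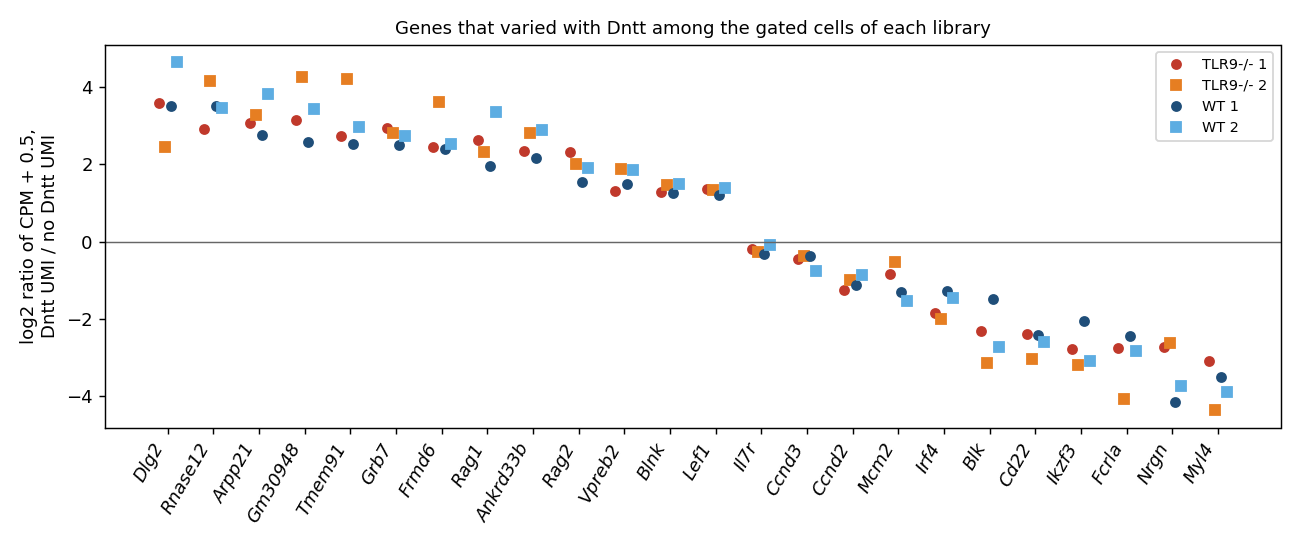
Log2 ratio of CPM + 0.5 in Dntt-positive over Dntt-negative gated cells of the same library (y axis) for genes of the split (x axis), 1 point per library. From Dlg2 to Lef1 all points lie above 0, and from Ccnd2 to Myl4 all lie below 0.

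Tlr9, the targeted gene (chromosome 9 from 106222598 to 106226883) was barely seen in the gated cells, with 1 and 2 UMIs in the TLR9-/- and 2 and 3 in the WT libraries, too few to check the labels within these cells. Over all cells it had 41 and 48 UMIs in TLR9-/- and 120 and 97 in WT, so UMIs of the gene remained in the TLR9-/- libraries, and which part of the gene is deleted is not given in the sources used here. Tnfsf11, the osteoclast cytokine RANKL, had 8 and 2 UMIs in TLR9-/- and 4 and 5 in WT gated cells, 19 in all, compared with 8 UMIs in the more numerous other Cd79-positive cells. Its decoy receptor Tnfrsf11b had 0 UMIs in the gated cells of every library.

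Between genotypes, the gated cells were compared over the 4 libraries. The fit covered 10220 genes and called 22 (0.215%) up and 34 (0.333%) down in the mutant cells at a threshold of 0.05 on the adjusted p, while the unadjusted p of 1174 genes was below that value. For all 56 the 2 TLR9-/- libraries did not overlap the 2 WT libraries, but a call selects for this, so nothing is read from it. DESeq2 called 32 higher and 35 lower. With the library number as a block 223 were higher and 233 lower, so the count depended on the block, and which samples came from the same experiment is not given in the labels. The calls below are those of the fit without the block unless it is named. Without the gated cells that held 2 or more UMIs over 10 genes of other lineages, 22 were higher and 40 lower, of which 17 and 29 were shared with the whole set. The counts rest on every TLR9-/- library, since 7 and 3 genes passed without TLR9-/- library 1 and 6 and 5 without TLR9-/- library 2, and 19 were lower without WT library 1. Nothing says that the libraries of a group were more than 1 sample of 1 mouse each, so the tests measure the spread among 4 mice. In summed RNA, a change in the mixture of cell states and a change per cell cannot be told apart, so genes with a large difference along Dntt are named as such.

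Genes of the B-cell precursor stage did not pass between genotypes in the fit without a library block. Vpreb1 had 1024 ± 124 CPM in TLR9-/- and 1312 ± 114 in WT cells and Igll1 1828 ± 112 and 1898 ± 446 (SD, n = 2 libraries each, given without a test because both chose the cells). Of 16 genes of the pre-B-cell receptor and its signalling that were tested, 0 passed, with 4 at an unadjusted p under 0.05 and a median log2 difference of −0.28 beside −0.03 over all genes. Vpreb2 had 169 and 171 CPM in TLR9-/- and 194 and 164 in WT cells. Vpreb3 had 2395 and 2319 against 3480 and 2909 CPM (−0.44, standard error 0.17, adjusted p = 0.39). Of 14 recombination genes, 26 B-cell transcription factors, 16 early B-lineage genes and 17 genes of later B cells, 0 passed, with 3, 10, 4 and 4 at an unadjusted p under 0.05 and medians of −0.23, −0.31, −0.12 and −0.36. Dntt had 178 and 234 against 282 and 306 CPM (−0.52, adjusted p = 0.34), and Rag1 had 36.8 and 42.1 against 68.5 and 82.9 CPM (−0.95, adjusted p = 0.08). For both genes the groups did not overlap. Of 10 Toll-like receptor pathway genes 0 passed, and 0 had an unadjusted p under 0.05. Of 9 heat-shock chaperone genes tested 0 passed, with 4 at an unadjusted p under 0.05, 9 positive estimates and a median of 0.45. Hspd1 and Hspa8 of these passed as higher with the library number as a block. With the library number as a block, which the labels do not tie to a shared experiment, Vpreb3, Ighm, Rag1, Dntt, Lef1, Bach2, Satb1 and Tcf4 passed as lower, so these calls changed with the block. These p values do not show that the genes are alike in the 2 genotypes.

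Among the genes higher in TLR9-/- cells, Trib2, a pseudokinase that steers protein degradation and is studied in leukaemia, led the called genes with a mean of at least 20 CPM and UMIs in every library. Its level was 65.1 and 64.1 CPM in TLR9-/- and 10.5 and 6.94 CPM in WT cells (64.6 ± 0.708 against 8.71 ± 2.50, SD, n = 2 libraries each, 7.54-fold, log2 difference 2.91, standard error 0.23, adjusted p = 0.0008). It was found in 28.0% and 36.9% of the gated TLR9-/- cells and in 4.07% and 4.37% of the WT cells. It lies on chromosome 12 from 15791727 to 15816922 and passed in all 14 alternatives run for it. Among cells with a Dntt UMI its difference was 3.99 and among those without one 2.64. Mid1, a microtubule-bound ubiquitin ligase on the X chromosome, had 70.8 and 76.8 CPM against 14.2 and 19.5 (2.11, standard error 0.21, adjusted p = 0.0028) and was found in 28.6% and 39.9% of the TLR9-/- and 5.14% and 10.6% of the WT cells.

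Socs2, the feedback inhibitor of cytokine signalling and 1 of 21 genes of the interleukin-7 list tested, was the only one of that list to pass without the block, and Ccnd2 joined it with the block. It had 103 and 118 CPM in TLR9-/- and 52.4 and 32.4 in WT cells (1.39, adjusted p = 0.042), and 9 of 14 alternatives called it. Adat2, a tRNA deaminase, had 35.3 and 39.8 against 11.8 and 15.8 CPM (1.42), Ocel1 62.6 and 70.6 against 26.6 and 23.4 (1.41) and Rmnd1, a mitochondrial protein of the translation machinery, 48.3 and 52.9 against 23.4 and 18.9 (1.26). For each of these genes the lower TLR9-/- library was above the higher WT library. Anxa3, an annexin abundant in neutrophils, had 36.4 and 47.1 against 9.67 and 16.3 CPM (1.64) but only 6 of 13 alternatives called it. When the gate was applied after thinning to 1000 UMIs its difference was 0.016, and without the cells with other-lineage UMIs it could not be tested under the filter on low counts. Of the 12 neutrophil genes 0 passed, with 4 at an unadjusted p under 0.05, 7 negative estimates and a median of −0.07. Elane had 1280 and 2792 CPM in TLR9-/- and 290 and 1029 in WT cells and Prtn3, another granule protease, 915 and 2112 against 215 and 632 (1.83), whereas S100a8, S100a9 and Camp were at −0.14, −0.13 and −0.35. Of 6 monocyte genes tested 0 passed, with 3 at an unadjusted p under 0.05, 6 positive estimates and a median of 0.82. Ms4a6c had 52.3 and 41.7 CPM against 18.5 and 23.3 (1.17, edgeR adjusted p = 0.052) and Ly6c2 363 and 520 against 201 and 275 (0.89). Without the cells with other-lineage UMIs the monocyte median was −0.27 over 5 genes and the neutrophil median −0.52, while Trib2 (3.07), Mid1 (2.03), Socs2 (1.48), Ocel1 (1.48), Adat2 (1.43) and Rmnd1 (1.35) still passed. The part of neutrophil and monocyte RNA in the Anxa3 result was not tested.

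Among the genes lower in TLR9-/- cells, Uchl1, a ubiquitin hydrolase best known from neurons, had 8.16 and 12.0 CPM against 68.2 and 49.9 in WT cells (10.1 ± 2.69 against 59.1 ± 12.98, SD, n = 2 libraries each, log2 difference −2.59, standard error 0.26, adjusted p = 0.00285). It was found in 4.68% and 9.59% of the TLR9-/- and 21.1% and 23.1% of the WT cells. Hist1h4i, an H4 histone gene of the chromosome 13 cluster, had 33.3 and 25.9 against 173 and 111 CPM (−2.25, adjusted p = 0.0047). Reads of replication-dependent histone genes may be shared among near-identical copies, so this value is uncertain. Bfsp2, 1 of the 10 genes that led the gated cells over other B-lineage cells, had 95.3 and 101 against 271 and 261 CPM (−1.44, standard error 0.16, adjusted p = 0.0046). It was found in 33.7% and 39.5% of TLR9-/- and 45.7% and 57.6% of WT gated cells.

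Gpat3, a glycerolipid acyltransferase, had 9.48 and 12.7 against 34.4 and 35.3 CPM (−1.68), Ablim1, an actin binding protein, 22.9 and 23.9 against 51.6 and 59.8 (−1.25) and Serinc5, a membrane protein that restricts retroviruses, 20.5 and 18.1 against 47.0 and 39.2 (−1.14, called in 4 of 14 alternatives). Hjurp, the chaperone of the centromeric histone and the only one of 53 G2 and mitosis genes to pass without the block, had 41.9 and 45.2 against 93.5 and 122 CPM (−1.31). With the block Tubb4b, a beta tubulin, passed as higher too. Gm42047 had 17.9 and 27.0 against 67.4 and 53.1 CPM (−1.45). Dlg2 had 14.8 and 12.7 against 36.5 and 41.1 CPM (−1.48), and in the Dntt split it was the leading gene of the Dntt-positive cells. In cells with a Dntt UMI its genotype difference was −1.56 and in those without one −0.67. Of the 34 lower genes 7, and of the 22 higher genes 1, were also called higher in the Dntt-positive cells, beside 5.52% of all genes tested there. Both WT libraries had larger shares of Dntt-positive cells than both TLR9-/- libraries at 1000 UMIs, but at 2000 UMIs (20.9% and 35.0% against 28.5% and 33.3%) and without thinning, as in the fit, TLR9-/- library 2 had the largest share. The part of this mixture in the 7 genes was not tested.

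Some erythroid markers differed as well. Of 8 erythroid markers 2 passed, both lower, beside 0.333% of all genes that were lower. Hba-a2, an alpha globin, had 119 and 101 CPM in TLR9-/- and 267 and 277 in WT cells (−1.31) and Car1, a carbonic anhydrase of red cell precursors, 5.51 and 7.72 against 18.8 and 38.6 (−2.18). In WT library 1, 51 of 70 Car1 UMIs lay in 1 cell, and in TLR9-/- library 2, 104 of 261 Hba-a2 UMIs did. The list summed to 2085 and 1070 against 4696 and 1778 CPM, so its groups overlapped, and Hbb-bs did not pass (1573 and 447 against 3500 and 712 CPM). With the library number as a block 5 of the 8 passed as lower, Hbb-bs among them, so its call changed with the block. Among cells with a Dntt UMI the Hba-a2 difference was −0.26 and did not pass, and among those without one it was −2.21 (edgeR adjusted p = 0.032). Without the cells with other-lineage UMIs Hba-a2 was at −1.75 and did not pass (edgeR adjusted p = 0.093). There 1 of 5 erythroid genes tested passed as lower (Hba-a1). Of the alternatives, 8 of 14 called Hba-a2 and 6 of 12 Car1.

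A block of interferon-stimulated Trim genes on chromosome 7 was low or at 0 in TLR9-/- cells. Trim34a (104244457 to 104262234) had 0.662 and 1.93 CPM in TLR9-/- and 12.9 and 10.7 in WT cells (−3.32, adjusted p = 0.018). Trim30d (104470014 to 104507849) had 0 UMIs in both TLR9-/- samples, compared with 33 and 23 in WT cells. These were the 2 of 26 interferon-stimulated genes tested that passed, beside 0.333% of all genes that were lower, and the list had a median of −0.46. With the block Ifi209 and Isg15 were lower as well. Of the alternatives, 8 of 14 called Trim34a and 9 of 13 Trim30d. Their neighbours Trim5 (104263386 to 104288094) and Trim12a (104299894 to 104315466), named after their values were seen, were also at 0 UMIs in the TLR9-/- cells, with 32 and 41 UMIs of Trim5 and 112 and 152 UMIs of Trim12a in WT. Against a floor of 3 UMIs over the 2 libraries, Trim12a was at least 69.6-fold lower, Trim5 at least 19.3-fold and Trim30d at least 15.7-fold lower. The Trim genes of this region are close relatives, and reads that fit several of them may not have been counted.

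In the opposite direction, Gm6594, BC018473 and Gm35082 had 0 UMIs in the gated cells of both WT libraries. Gm6594 had 412 and 343 UMIs in TLR9-/- cells (at least 337-fold higher), BC018473 265 and 267 (at least 243.7-fold) and Gm35082 190 and 145 (at least 148-fold). Such genes were not particular to these cells. Over all cells of the libraries, Gm6594 had 3416 and 6572 UMIs in TLR9-/- and 0 in both WT libraries, BC018473 had 7673 and 14319 against 2 and 0, and Trim12a had 5 and 7 against 1051 and 1256. In total 13 of the 56 called genes had 0 UMIs in 1 genotype, 6 of them in TLR9-/- and 7 in WT gated cells. The kappa variable gene Igkv12-41 was the only one of the 13 with many UMIs over all cells of both genotypes, at 320 and 491 in TLR9-/- and 665 and 426 in WT.

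**Figure D5:**
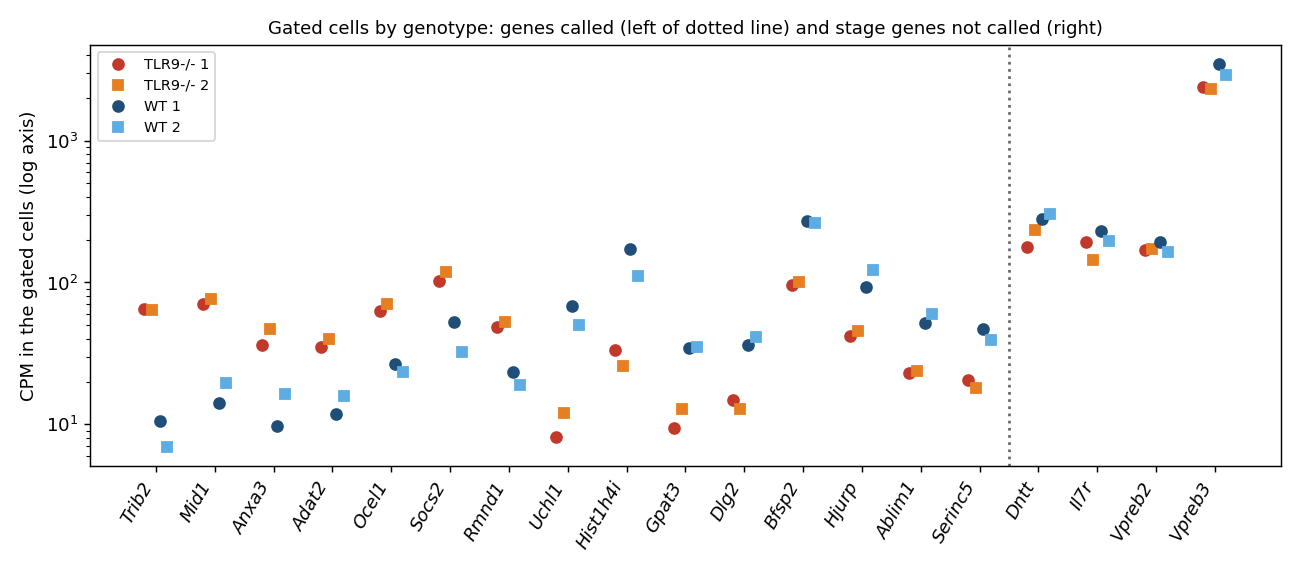
CPM in the gated cells (y axis, log scale) of genes called between genotypes (left of the dotted line) and of stage genes that were not called (right), 1 point per library. For Trib2 the TLR9-/- libraries lie at 65.1 and 64.1 and the WT libraries at 10.5 and 6.94, for Bfsp2 at 95.3 and 101 against 271 and 261, and Vpreb2 lies between 164 and 194 in all 4.

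The states of the gated cells were compared at 1000 UMIs per cell. Cells with at least 3 G2 and mitosis UMIs made up 76.2% and 72.4% of the TLR9-/- and 70.3% and 70.3% of the WT gated cells (difference 4.02 points, exact permutation p = 0.333), and at 2000 UMIs the groups overlapped with a difference of 0.407 points. Without Hmgb2 the shares were 68.7% and 64.2% against 60.2% and 62.9% (4.86 points, exact permutation p = 0.333). Between 12.1% and 16.2% of the cells lay at the limit of this class. Dntt-positive cells differed by −6.90 points (24.98% ± 2.67 against 31.9% ± 4.89, SD, n = 2 libraries each, exact permutation p = 0.333), and at 2000 UMIs the groups overlapped with −2.96. Igkc-positive cells made up 20.9% and 26.9% against 21.2% and 20.4% (3.10 points, exact permutation p = 0.667). Without thinning the Dntt shares were 36.3% and 46.9% against 42.0% and 46.0%, and the Igkc shares 42.7% and 46.1% against 40.1% and 43.7%. None of these differences can reach a p below 0.33 with 2 libraries a group.

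Whether a genotype difference was larger in the gated cells than in other Cd79-positive cells was tested by the interaction term. Of 12023 genes, 59 (0.491%) had a difference shifted upwards and 48 (0.399%) downwards in the gated cells. Trib2 had 64.5, 29.3, 29.3 and 29.0 CPM in the other cells of TLR9-/- 1, TLR9-/- 2, WT 1 and WT 2, so its genotype difference was 2.31 larger in the gated cells on the log2 scale (standard error 0.38, adjusted p = 0.036), and with the narrower comparison cells this shift was 1.18 and did not pass. Cyp4f18, a leukotriene-metabolising cytochrome, had 2.65 and 5.79 against 34.1 and 28.7 CPM in gated cells, and its shift was −1.69 (adjusted p = 0.046) or −2.44 with the narrower comparison (adjusted p = 0.027). For Dntt the shift was −1.48 (adjusted p = 0.018), and the other Cd79-positive cells had 28.7 CPM in TLR9-/- library 2 and 10.1 to 14.7 in the remaining libraries. With the narrower comparison 3 genes were shifted upwards and 17 downwards.

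Heavy chain variable genes gave 141, 205, 283 and 104 CPM in the gated cells of TLR9-/- 1, TLR9-/- 2, WT 1 and WT 2, from 66 to 90 genes per library. The distal families Ighv1 and Ighv8 made up 54.9%, 55.1%, 77.8% and 58.3% of them and the proximal families Ighv2 and Ighv5 16.1%, 15.2%, 5.97% and 12.4%. WT library 1 stood apart in both shares, where Ighv1-72 gave 576 of 1072 Ighv UMIs and 567 of them came from 1 cell. Both shares were apart between the genotypes, with distal families lower and proximal families higher in the TLR9-/- cells, and no test was run, since 2 libraries against 2 cannot go below an exact permutation p of 0.333. Without the cell with the most Ighv1-72 UMIs of each library, a setting chosen after the data were seen, the distal shares were 54.7%, 54.8%, 52.6% and 58.0% and overlapped, and the proximal shares were 16.2%, 15.3%, 12.7% and 12.5% and did not.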

How the data were processed

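Bone marrow mononuclear cells of 2 TLR9-/- and 2 WT mice were profiled by 5′ single-cell RNA sequencing. The authors deposited UMI counts per gene and cell for each library, made with Cell Ranger (matrix header 3.0.1) on mm10, and no normalization was applied to them. Seurat 2.3.4 is named in the submitters' notes, but its output was not used here. Cells with 200 to 10000 genes and at most 10% mitochondrial UMIs were kept. Doublets were ranked by Scrublet scores (Scanpy 1.11.5) at 0.8% per 1000 cells, because the threshold set by the tool itself marked almost no cells in 3 of 4 libraries, and marked cells were kept except in 1 alternative. Counts of the gated cells were summed per library and tested with edgeR 4.0.16 (TMM scaling, filter on low counts, quasi-likelihood test, Benjamini-Hochberg adjustment over all genes, threshold 0.05, and at least 2-fold between cell populations). Comparisons of cell populations had the library as a block. Means ± SD are over CPM of libraries, and sums over lists and values at the edge of the rule are CPM without TMM scaling. DESeq2 1.42.0, RLE scaling, no filter, other gates and each library left out were alternatives. The fits were also tried on simulated data, and no result of this is used here. Single values were compared by exact two-sided permutation tests over libraries (scipy 1.17.1). Intervals for counting error were not computed.

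Named genes were the genes of the rule, members of 20 gene lists that passed or had the highest CPM, the 10 called genes of largest change in each direction with a mean of at least 20 CPM and no overlap, Tlr9, Tnfsf11 and Tnfrsf11b. The members and lists were chosen with earlier results of these data known. Gene positions are from GENCODE M21 (31011 of 31053 features matched). A result that the rule on named genes also selected in the interaction is not reported here.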

Additional observations from a re-analysis of the deposited data

Results flagged for a closer look

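For 107 genes, of which those of largest difference by the rule on named genes follow, the genotype difference in the gated cells differed from that in the other Cd79-positive cells by the interaction term of the edgeR fit (adjusted p under 0.05), and the term is the log2 difference (TLR9-/- minus WT) in the gated cells minus that in the other cells, so that a change in either population can give it. Variable genes of immunoglobulin had the largest terms among these. They were −7.001 for Ighv1-39, −6.12 for Ighv2-9-1, −5.78 for Ighv1-76, −4.55 for Ighv5-17, −4.52 for Ighv5-6, −4.16 for Ighv1-80, −2.73 for Igkv6-32, −2.44 for Iglv2 and 5.90 for Igkv9-123. All Ighv genes together had 645, 519, 1072 and 556 UMIs in the gated cells of TLR9-/- 1, TLR9-/- 2, WT 1 and WT 2, over 66 to 90 genes. In the other cells they had 42908, 35898, 21331 and 13228. In which population a single variable gene differed is not shown by its term. Among other genes Egfl7 had −1.77 and Cyp4f18 −1.69. For Egfl7 the gated cells had 27.2 and 31.4 CPM in TLR9-/- and 37.6 and 43.5 in WT, and the other cells 30.3 and 32.4 against 10.5 and 15.1, so the other cells differed more. Terms above 0 were 1.22 for Carhsp1, 1.25 for Bst1, 1.27 for Car2, 1.41 for Hemgn, 1.45 for Ctse, 1.51 for Akap12, 1.58 for Gm42031 and 2.31 for Trib2. Car2 had 99.8 and 163 against 115 and 126 CPM in the gated cells, which overlapped, and 89.9 and 126 against 219 and 265 in the other cells.

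With the comparison cells restricted to those with at least 3 Cd79 UMIs and few myeloid UMIs, a choice made after seeing the data, the 6 Ighv genes, Igkv6-32, Cyp4f18 (−2.44) and Gm42031 (0.95) still passed. Iglv2, Egfl7, Carhsp1, Bst1, Car2, Hemgn, Ctse, Akap12, Trib2 and Igkv9-123 did not.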

How the results depend on the processing

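Leaving out each library in turn gave 6 to 15 genes higher and 3 to 38 lower by genotype, 407 to 502 and 1231 to 1506 for gated against other cells, 33 to 276 and 37 to 229 for the interaction and 395 to 580 and 121 to 194 for the Dntt split. The genotype difference of the share then ran from −6.13 to −2.04 points, of G2/M cells from 2.11 to 5.94, of Dntt-positive cells from −10.4 to −3.44 and of Igkc-positive cells from 0.0979 to 6.10. At 2000 UMIs the Igkc difference turned to −1.65. By genotype, no filter on low counts gave 143 higher and 187 lower, the gate after thinning 14 and 20, gated cells with a Dntt UMI 14 and 22 (chosen after seeing the data), and leaving out marked doublets 20 lower. For gated against other cells, the narrower comparison gave 718 higher and cells of 1000 to 3000 UMIs 609 lower. For the interaction, RLE scaling gave 30 higher, no filter 366 and 355, and the narrower comparison 3 and 17. For the Dntt split, cells of 1000 to 5000 UMIs gave 228 higher and no filter 279 lower. Gtse1 turned to −0.068 in cells of 1000 to 3000 UMIs, Cd34 to 1.08, Kit to 1.12, Vpreb3 to −0.016 and Blnk to −0.12 with the narrower comparison, and Lyz2 to −0.64 in cells of 1000 to 5000 UMIs. The cause was not tested. Of the alternatives for single named genes, 1106 kept the direction and side of the threshold and 165 kept the direction but no longer passed. The test of Jchain without WT library 1 gave no value.

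With the library number as a replicate block, 223 genes were higher and 233 lower by genotype, among them all 22 and 34 of the fit without it. Under this block Vpreb3, Ighm, Rag1, Dntt, Lef1, Bach2, Satb1, Tcf4, Iglc2, Ltb and Ms4a1 of the B-lineage lists passed as lower, Spi1, Myc, Ccnd2 and Socs2 as higher, and of the other-lineage markers Elane, Mpo, Prtn3, F13a1, Ly6c2, Ms4a6c, Nkg7, Xbp1 and Mcpt8 as higher and Lcn2, Klrb1c, Gzma, Jchain and 5 of 8 erythroid genes as lower. The 12 neutrophil genes had a median of −0.05. The labels do not say that a number marks a shared experiment, and the deviations of TLR9-/- 1 and WT 1 correlated at 0.491 over 5054 genes, so the crossed pairing was not run.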
